A study of Arabidopsis thaliana with 26 samples.

Results

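Leaves of Arabidopsis thaliana that had been darkened for 6 days were compared between a line with a knockout of PIF5 (pif5; the series' design text gives the allele as pif5-621) and the wild-type accession Col-0. The comparison rests on 6 of the 26 single-colour arrays of the series, the 3 titled as pif5 leaves and the 3 titled as Col-0 leaves at 6 days of darkness, and it takes in all 26676 probe sets of the deposited log2 table. Both genotypes were grown in short days, and in both the sampled leaf was individually darkened: on each plant 2 fully expanded leaves were covered, while the other leaves of the rosette stayed uncovered. Leaf blades were collected at noon. The other arrays used here are 3 for each genotype in light (day 0), at 1 day and at 3 days of darkening, and 2 for pif5 at 12 days. Leaf age was not given in the sources used here, and the mutant is a single knockout line. Whether the replicates of a group are different plants is not stated in the labels. The p-values therefore reflect only how far these arrays vary, and part of that variation may be technical.

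PIF5 is a basic helix-loop-helix transcription factor that binds the light-activated form of phytochrome B and is degraded in light. It accumulates in darkness, where it and its close relative PIF4 are known to promote leaf senescence, in part through ethylene and abscisic acid signalling. Senescence of a shaded leaf is a regulated programme in which chlorophyll and chloroplast proteins are dismantled and their nitrogen is moved to other organs, with transcripts for photosynthesis declining and transcripts for catabolism and transport accumulating. The comparison asks how the transcripts of a leaf that lacks PIF5 stand against those of a wild-type leaf after the same time in darkness.

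Probe sets, each a row of the deposited table, are cited by their identifier and not by gene. The platform annotation lists 1 gene for 16179 probe sets, several for 588 and none for 9909. Of 189 genes in 13 lists (pigment breakdown, senescence, light signalling, photosynthesis, amino acid catabolism, autophagy, the clock and hormones), 32 had a listed probe set. Among 45 nuclear genes of photosynthesis, which are strongly expressed in leaves, 8 had one. In Col-0 leaves in light the single probe set listed for an antenna protein stood at 4.34 on the log2 scale, the 4 listed for photosystem subunits had a median of 4.89 and the 3 listed for the Calvin cycle one of 7.62, against a median of 4.31 over all probe sets. The names were therefore not shown to go with the values, the lists were not used further, and neither the leaf identity of the samples nor the level of PIF5 was checked through named genes. The genotype labels are taken as given.

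The genotypes differed widely after 6 days of darkening. In pif5 leaves 3676 probe sets (13.8% of those tested) were higher than in Col-0 leaves and 4743 (17.8%) were lower, together 31.6% of the table, by limma over all arrays with a Benjamini-Hochberg adjusted p under 0.05. The excess of lower calls depended on the scaling: with quantile normalization 4198 were higher and 4147 lower in pif5. On the values as deposited, a difference of at least 2-fold, 1 on the log2 scale, was reached by 930 of the higher probe sets (3.49% of all) and 1274 of the lower ones (4.78%). The lower side also reached further: 66 probe sets were at least 8-fold lower in pif5 and 27 at least 8-fold higher, and 12 and 5 were at least 16-fold lower and higher. Over the whole table the signed log2 difference had a median of -0.01, quartiles of -0.23 and 0.17, and 5th and 95th percentiles of -0.98 and 0.83. Total RNA from whole leaf blades was measured, so fewer cells of a type and less RNA per cell cannot be told apart.

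The arrays of a genotype lay much closer to each other than to the other genotype. Between a pif5 and a Col-0 array at day 6, 2001 to 2646 probe sets were at least 2-fold apart, against 57 to 117 between 2 pif5 arrays and 28 to 32 between 2 Col-0 arrays. All 3 pif5 arrays were separate from all 3 Col-0 arrays at 11683 probe sets (43.8% of the table), of which 8210 passed the test. With 3 arrays on each side some probe sets separate without a genotype difference, so the share is not a measure of genotype effects alone. One pif5 array stood nearer to Col-0 than the others. Replicate 2 of pif5 was at least 2-fold from a Col-0 array at 2001 to 2037 probe sets, replicate 1 at 2551 to 2565 and replicate 3 at 2590 to 2646. Without pif5 replicate 2, 7790 probe sets passed and 2408 of them differed at least 2-fold, against 8419 and 2204 with it.

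**Figure D1:**
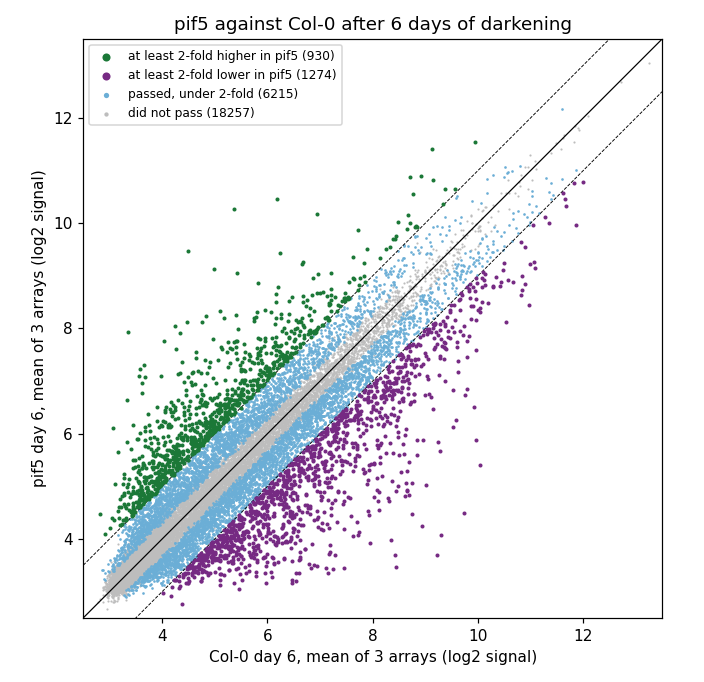
Each point is 1 of 26676 probe sets, with the mean log2 signal of 3 pif5 arrays (vertical) against that of 3 Col-0 arrays (horizontal) at day 6. The dashed lines mark 2-fold differences. The 930 probe sets at least 2-fold higher in pif5 lie above the diagonal and the 1274 at least 2-fold lower lie below it, while 6215 passed the test with a smaller difference and 18257 did not pass.

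The 8 probe sets with the largest excess in pif5, among those that passed and whose arrays did not overlap, were 12.6-fold to 31.5-fold higher in pif5 leaves. Probe set 13361474 had log2 signals of 9.64, 9.20 and 9.56 in the pif5 leaves, against 4.42, 4.52 and 4.53 in the Col-0 leaves, a difference of 4.98 (SE 0.23, limma adjusted p = 2.3e-15). In pif5 its mean was higher on each later day, and in Col-0 it peaked at day 1. The pif5 leaves averaged 6.99 ± 0.17 in light and, with longer darkening, 7.33 ± 0.61 (day 1), 8.24 ± 0.40 (day 3), 9.46 ± 0.23 (day 6; SD, n = 3 for each of these days) and 10.10 ± 0.30 (day 12; SD, n = 2). The Col-0 leaves averaged 6.67 ± 0.27 in light, then 7.81 ± 0.23 (day 1), 5.78 ± 0.37 (day 3) and 4.49 ± 0.06 (day 6; SD, n = 3 for each day). The courses of the genotypes thus ran apart in both directions after day 1, and at day 6 the mutant leaves stood above the level in light and the wild-type leaves below it.

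In the other probe sets of this group Col-0 leaves also stood far below their level in light, and pif5 leaves stood closer to that level. Probe set 13346788 had 10.91, 10.38 and 9.53 in pif5 leaves, against 5.28, 5.76 and 5.04 in Col-0 leaves (difference 4.91, SE 0.39, limma adjusted p = 9.1e-11). Its mean in light was 11.43 in pif5 and 11.28 in Col-0. The spread between the pif5 arrays at day 6, an SD of 0.70, was the widest among the 8. Probe set 13419284 had 8.05, 8.01 and 7.72 in pif5 leaves, against 3.23, 3.48 and 3.33 in Col-0 leaves, a difference of 4.58 (SE 0.17, limma adjusted p = 6.8e-17). In pif5 its mean was 7.95 at day 3 and 7.87 at day 12, close to the 7.93 at day 6, while in Col-0 it was already 5.08 at day 3. Probe set 13407972 had 10.48, 10.25 and 10.62 in pif5 leaves, against 6.47, 5.94 and 6.17 in Col-0 leaves (difference 4.26, SE 0.27, limma adjusted p = 1e-12). In pif5 it was lowest at day 1, with a mean of 9.50, and higher at day 3 (10.01), day 6 (10.45) and day 12 (10.48), whereas in Col-0 each later day was lower than the one before.

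Probe set 13495603 had 9.06, 9.12 and 9.18 in pif5 leaves, against 5.12, 4.73 and 5.10 in Col-0 leaves, a difference of 4.14 (SE 0.32, limma adjusted p = 4.5e-11). Here pif5 also lost much of the signal: its means were 11.57, 11.28, 9.87, 9.12 and 8.39 at days 0, 1, 3, 6 and 12. The mutant at day 12 thus still stood above Col-0 at day 6. The pif5 arrays at day 3 were uneven at this probe set, with 10.73, 10.51 and 8.36. Probe set 13418708 had 7.82, 8.15 and 8.19 in pif5 leaves, against 4.17, 3.91 and 4.64 in Col-0 leaves (difference 3.82, SE 0.27, limma adjusted p = 1.1e-11). Probe set 13499630 had 7.70, 7.53 and 8.03 in pif5 leaves, against a mean of 4.03 ± 0.08 in Col-0 leaves (SD, n = 3), a difference of 3.72 (SE 0.19, limma adjusted p = 1.3e-14). Neither had lost signal after 1 day: the day 1 means were 9.78 in pif5 and 10.16 in Col-0 at 13418708, and 9.41 and 9.27 at 13499630, all at or above those in light. Probe set 13363042 had 7.30, 7.30 and 7.33 in pif5 leaves, against 3.81, 3.80 and 3.35 in Col-0 leaves, a difference of 3.66 (SE 0.24, limma adjusted p = 3.2e-12). In pif5 its mean stayed between 6.69 and 7.68 on all days, and in Col-0 it was 6.60 in light and 3.65 at day 6. In light and at day 1 the genotype differences of the 8 ran from -0.49 to 0.69, with limma adjusted p of 0.19 or more, and at day 3 all 8 were higher in pif5, by 1.80 to 2.98 on the log2 scale.

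**Figure D2:**
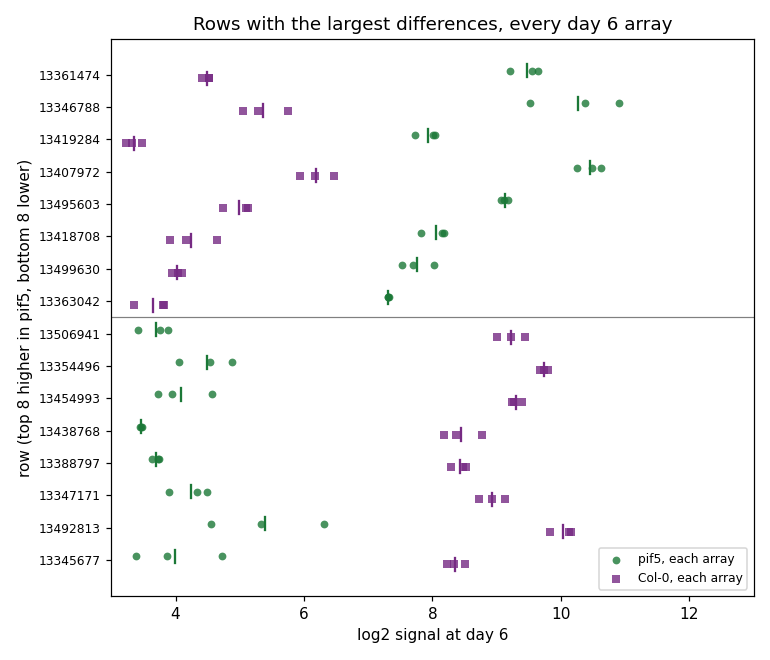
Log2 signal at day 6 (horizontal) of the 8 probe sets with the largest positive and the 8 with the largest negative difference (one line each, in order of size). Circles are the 3 pif5 arrays and squares the 3 Col-0 arrays, with a tick at each group mean. In every line the arrays of the genotypes are far apart, and the pif5 arrays of 13492813 and 13346788 are the most scattered, with SDs of 0.88 and 0.70.

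The 8 probe sets with the largest deficit in pif5 were 20.7-fold to 46.5-fold lower there, and most of them were dim in light in both genotypes and bright only in darkened Col-0 leaves. In pif5 most of them were near or below the array medians of 4.22 to 4.25, and signal over background was not given, so these folds hold on the deposited scale and depend on where its floor lies. The same holds for the Col-0 values of the dimmest probe sets in the preceding group. Probe set 13506941, with the largest difference of the table on that scale, had 3.42, 3.76 and 3.88 in pif5 leaves, against 9.01, 9.45 and 9.23 in Col-0 leaves, a difference of -5.54 (SE 0.23, limma adjusted p = 3.9e-16). Its genotype difference was present after 1 day of darkening (-2.72, SE 0.23, limma adjusted p = 1.8e-08), and it was the only one of the 8 to pass at that day. In Col-0 its means at days 0, 1, 3 and 6 were 3.84, 7.05, 7.66 and 9.23, and in pif5 they were 3.54, 4.33, 4.63 and 3.69, with 3.95 at day 12.

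Some other members of this group came up later in Col-0. Probe set 13354496 had 4.06, 4.87 and 4.54 in pif5 leaves, against 9.81, 9.68 and 9.74 in Col-0 leaves (difference -5.25, SE 0.27, limma adjusted p = 2.9e-14). Its means were close at day 1, with 4.39 in pif5 and 4.43 in Col-0, and far apart at day 3, with 4.95 and 9.14. Probe set 13454993 had 3.73, 4.57 and 3.94 in pif5 leaves, against 9.27, 9.23 and 9.39 in Col-0 leaves, a difference of -5.22 (SE 0.22, limma adjusted p = 3.9e-16). In Col-0 its mean was 4.75 at day 3 and 9.30 at day 6, so most of its signal there appeared between those days, and the genotype difference was -0.91 at day 3. In pif5 at day 12 its mean was 5.48 ± 0.94 (SD, n = 2). Probe set 13438768 had 3.45, 3.48 and 3.47 in pif5 leaves, against 8.36, 8.18 and 8.78 in Col-0 leaves (difference -4.97, SE 0.18, limma adjusted p = 6.8e-17). In pif5 its means lay between 3.32 and 3.93 on all 5 days.

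Probe set 13388797 had a different course, and it was the only one of the 16 that also differed in light. It had 3.62, 3.75 and 3.72 in pif5 leaves, against 8.28, 8.48 and 8.52 in Col-0 leaves, a difference of -4.73 (SE 0.19, limma adjusted p = 1.5e-16). In light its means were 6.21 in pif5 and 7.42 in Col-0 (difference -1.21, SE 0.19, limma adjusted p = 0.003), and at day 1 they were 3.86 and 4.16. Col-0 then stood at 6.53 at day 3 and 8.43 at day 6, above its level in light, whereas pif5 stayed at 3.69, 3.70 and 3.62 at days 3, 6 and 12. Probe set 13347171 had 4.33, 4.48 and 3.90 in pif5 leaves, against 8.73, 8.93 and 9.13 in Col-0 leaves (difference -4.69, SE 0.24, limma adjusted p = 1.9e-14).

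The remaining 2 of these 8 were the least even among the pif5 arrays. Probe set 13492813 had 4.55, 6.31 and 5.33 in pif5 leaves, against 9.83, 10.12 and 10.16 in Col-0 leaves, a difference of -4.64 (SE 0.49, limma adjusted p = 1.6e-08). Its means were 3.81 in pif5 and 3.71 in Col-0 in light, and 5.07 and 6.78 at day 1. The day 1 difference of -1.71 narrowly failed to pass (limma adjusted p = 0.051). Probe set 13345677 had 3.38, 4.71 and 3.87 in pif5 leaves, against 8.33, 8.23 and 8.51 in Col-0 leaves (difference -4.37, SE 0.30, limma adjusted p = 5.4e-12). In both, pif5 replicate 2 was the highest pif5 array, as it was in 7 of the 8 probe sets of this group. At 13438768 and 13388797, however, the pif5 arrays hardly differed, with SDs of 0.02 and 0.06. At 4 probe sets, all among these 8 (13506941, 13438768, 13388797 and 13347171), every pif5 array at day 6 was below 4.5 and every Col-0 array at 8 or above. At these bounds no probe set had the opposite pattern at day 6, and none had either pattern in light or at day 3. Probe set 13419284 came close to the opposite pattern at day 6, with 8.05, 8.01 and 7.72 in pif5 and 3.23, 3.48 and 3.33 in Col-0.

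**Figure D3:**
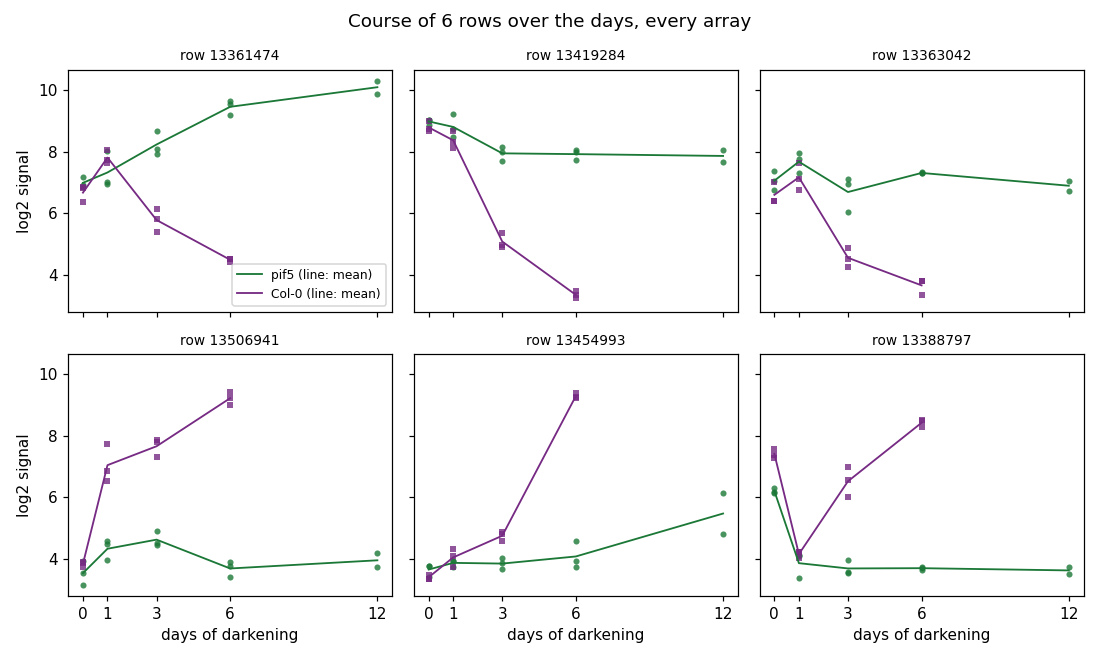
Log2 signal (vertical) of 6 probe sets in every array by days of darkening (horizontal), with lines through the group means. The upper panels show 13361474, 13419284 and 13363042, in which pif5 leaves ended above Col-0 leaves, and the lower panels 13506941, 13454993 and 13388797, in which they ended below. Col-0 was sampled to day 6 and pif5 to day 12.

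Bright probe sets differed at a higher share than the table, though their largest differences were smaller in fold terms than those described above. Signal also depends on how well a probe set binds its target, so brightness is not a measure of transcript number. Of the 99 probe sets with a mean of at least 10 over all arrays, 27 were higher in pif5 and 32 lower, together 59.6%, against 31.6% of the table. At least 2-fold differences were found at 10 in each direction, and the median absolute difference over the 99 was 0.44 on the log2 scale. The largest excess among them was at 13539435, with 11.49, 11.33 and 11.39 in pif5 leaves, against 9.34, 9.04 and 8.98 in Col-0 leaves (difference 2.28, SE 0.17, limma adjusted p = 2.2e-11). At 13482912 the difference was 2.18, with group means of 10.88 ± 0.13 in pif5 and 8.70 ± 0.27 in Col-0 (SD, n = 3 each), and at 13336309 it was 1.99, with 10.90 ± 0.15 and 8.91 ± 0.16 (SD, n = 3 each). These 3 stood at 11.52 to 12.18 in light in both genotypes, so pif5 leaves at day 6 were nearer to the level in light. The largest deficits were at 13397106 (-1.94, with 9.14 ± 0.38 in pif5 and 11.08 ± 0.21 in Col-0), at 13411229 (-1.91, with 9.96 ± 0.37 and 11.87 ± 0.20) and at 13492947 (-1.36, with 10.32 ± 0.14 and 11.67 ± 0.08; SD, n = 3 each). At 13397106 the means in light were 10.23 in pif5 and 10.11 in Col-0, so that by day 6 pif5 lay below and Col-0 above the level in light.

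The share of probe sets that differed was lowest where the signal was weak. Of the 6417 probe sets with a mean of at most 3.5 over all arrays, 3.35% passed at day 6, and of the 5172 between 3.5 and 4, 14.2% did. The share was 41.8% of 4946 between 4 and 5, 2120 of the 4243 between 5 and 6, 53.7% of 3107 between 6 and 7, 56.5% of 1702 between 7 and 8 and 60.0% of 990 between 8 and 10. The mean over all arrays includes the day 6 arrays compared, so the classes are a description and not independent of the differences.

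The day 6 differences were then followed into the arrays of the other days. The genotype differences on those days come from other arrays. The calls are not independent, because the spread of each probe set was estimated over all arrays in the limma fit. In light the 930 probe sets that were at least 2-fold higher in pif5 at day 6 had a median genotype difference of 0.01, and 2 of them passed in that direction. The light arrays gave 9 calls in the whole table (0.0337%). At day 1 the median of the 930 was 0.13, and 98 passed as higher in pif5 and 35 as lower, with 1.57% and 1.83% of all probe sets passing in those directions. At day 3 it was 0.84 (quartiles 0.58 and 1.16), 915 of the 930 were higher in pif5 and 766 (82.4%) passed, against 8.53% of all probe sets. In either direction 18.3% of the table passed at day 3.

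For the 1274 probe sets at least 2-fold lower in pif5 at day 6 the median was 0.03 in light, -0.14 at day 1 and -0.78 at day 3 (quartiles -1.17 and -0.37). At day 1, 139 passed as lower and 17 as higher. At day 3, 892 (70.0%) passed as lower, where 9.8% of the table did, and 13 passed as higher. The count at day 1 over the whole table, 908 probe sets (3.4%), was 555 when Col-0 day 1 replicate 2 was left out. It was 576 when limma was fitted to the day 1 arrays alone. In light 30 probe sets passed when Col-0 day 0 replicate 1 was left out, and 2 passed when only the light arrays were fitted.

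**Figure D4:**
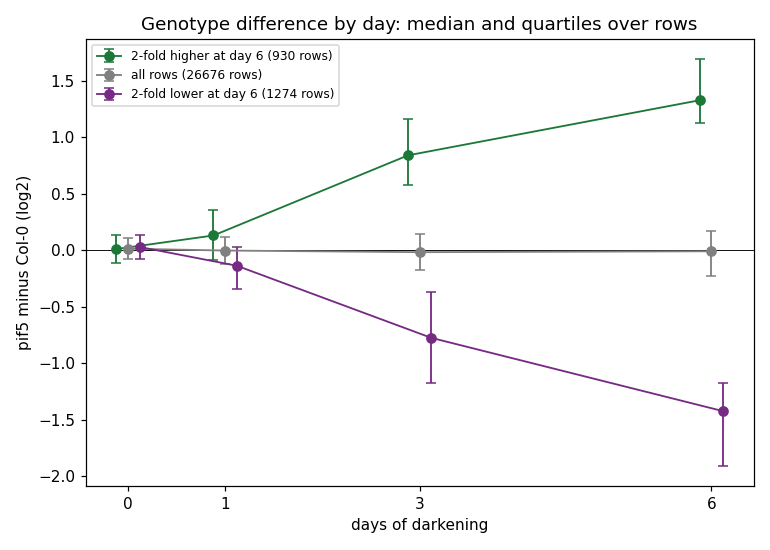
Genotype difference (pif5 minus Col-0, log2, vertical) at days 0, 1, 3 and 6 of darkening (horizontal) for the 930 probe sets at least 2-fold higher and the 1274 at least 2-fold lower in pif5 at day 6, and for all 26676. Points are medians over probe sets and bars reach to the quartiles. Day 6 chose the members of both sets, and days 0, 1 and 3 are other arrays, in which the medians are 0.01, 0.13 and 0.84 for the higher set and 0.03, -0.14 and -0.78 for the lower set.

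Most of the probe sets that differed at least 2-fold at day 6 had passed in the same direction by day 3. Of the 930 higher probe sets, 2 passed in light, a further 96 at day 1, a further 673 at day 3 and 159 (17.1%) at day 6 only. Of the 1274 lower probe sets these numbers were 2, 138, 758 and 376 (29.5%). A difference that did not pass at day 3 may still have been present, and the change of the difference itself was therefore tested. Between day 3 and day 6 it changed at 1282 probe sets (4.81% of the table), by limma on the difference at day 6 minus that at day 3. It became more positive at 425 and more negative at 857, a split that depended on the processing. The more positive share of these calls was 33.2% as deposited and 39.7% with median centring. With quantile normalization it was 41.2%, and with dim probe sets left out it was 43.0%. The difference grew at 258 of the 930 higher probe sets and at 530 of the 1274 lower ones, and it shrank at 2 of the 1274. Between light and day 6 the difference changed at 5923 probe sets of the table (22.2%). The counts within the 930 and the 1274 share the day 6 arrays with the choice of the probe sets, which favours a larger difference at day 6.

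The moves behind that change differed between its directions. At the 857 probe sets whose difference became more negative, the median change from day 3 to day 6 was -0.19 in pif5 leaves and 0.84 in Col-0 leaves, and the Col-0 change was the larger at 722. At the 425 whose difference became more positive, the median change was 0.41 in pif5 leaves and -0.45 in Col-0 leaves, and the Col-0 change was the larger at 224. Where the difference became more negative, then, the larger move was mostly a gain of signal in Col-0, and where it became more positive the medians of both genotypes moved, in opposite directions and by similar amounts.

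Set beside the level in light, the probe sets at least 2-fold apart at day 6 had a median change of larger size in Col-0. Gains and losses cancel in such a median, and the sizes were not compared probe set by probe set. Over the 930 higher probe sets the median change from light to day 6 was -0.42 in pif5 leaves (quartiles -1.31 and 0.55) and -1.84 in Col-0 leaves (quartiles -2.96 and -0.83). Over the 1274 lower probe sets it was 0.15 in pif5 leaves (quartiles -0.30 and 0.58) and 1.66 in Col-0 leaves (quartiles 1.12 and 2.46). Over all probe sets it was -0.01 in pif5 and 0.01 in Col-0. These changes share the day 6 arrays with the comparison that chose the probe sets, and they are given as a description. From day 3 to day 6 the medians of the higher set were 0.22 in pif5 and -0.35 in Col-0, and those of the lower set -0.18 in pif5 and 0.46 in Col-0.

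Probe sets chosen at day 3 were followed to day 6, where the genotype differences come from other arrays. The spread used for the calls at both days was again estimated over all arrays. At day 3, 432 probe sets were at least 2-fold higher in pif5 and 482 at least 2-fold lower. At day 6, 393 of the 432 (91.0%) passed as higher in pif5, 3 passed as lower, and the median difference was 1.53. Of the 482, all had a negative difference at day 6, 473 (98.1%) passed as lower, and the median was -1.69 (quartiles -2.23 and -1.35). Among all probe sets 13.8% passed as higher and 17.8% as lower at day 6.

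Averaged over the 432 probe sets, the pif5 arrays at day 6 stood at 6.61, 6.51 and 6.68, against 4.98, 4.98 and 5.03 in the Col-0 arrays. Over the 482 they stood at 5.54, 5.93 and 5.50, against 7.50, 7.50 and 7.57. The genotypes did not overlap in either average, and pif5 replicate 2 lay nearest to Col-0 in both. It was the highest of the 3 pif5 arrays at 386 of the 482 probe sets and the lowest at 234 of the 432. At day 12 the pif5 arrays stood at 6.56 and 6.72 over the 432 and at 5.68 and 5.19 over the 482, so that both were still on the pif5 side of the Col-0 arrays at day 6.

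**Figure D5:**
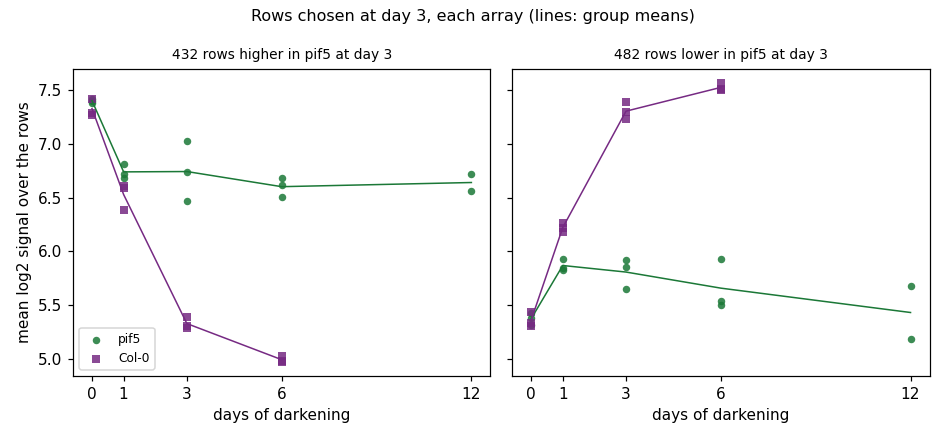
Mean log2 signal (vertical) of each of the 26 arrays by days of darkening (horizontal), over the 432 probe sets at least 2-fold higher (left) and the 482 at least 2-fold lower (right) in pif5 at day 3. Circles are pif5 arrays, squares Col-0 arrays and lines join group means. Day 3 chose the probe sets, while at day 6 the pif5 arrays stand at 6.51 to 6.68 against 4.98 to 5.03 in Col-0 on the left, and at 5.50 to 5.93 against 7.50 to 7.57 on the right.

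A small number of probe sets passed with opposite signs at day 3 and at day 6. Of the 4743 lower in pif5 at day 6, 36 had passed as higher at day 3, where 8.53% of the table did. Of the 3676 higher at day 6, 5 had passed as lower at day 3, where 9.8% of the table did. Among all of these the largest day 6 difference was at 13491950. It had 3.44, 3.88 and 4.08 in pif5 leaves, against 6.79, 6.62 and 6.71 in Col-0 leaves at day 6 (difference -2.91, SE 0.16, limma adjusted p = 5.2e-14). Its day 3 difference was 0.50 (limma adjusted p = 0.024). At day 3 it was dim in both genotypes, with means of 4.02 in pif5 and 3.53 in Col-0, so its signal in Col-0 appeared between days 3 and 6. At 13410517 the means were 5.65 in pif5 and 5.14 in Col-0 at day 3, and 4.39 and 6.93 at day 6 (difference -2.55, SE 0.18, limma adjusted p = 5.4e-12), so that both genotypes moved. With the signs the other way round, 13416171 stood at 9.38 in pif5 and 9.86 in Col-0 at day 3 and at 9.01 and 8.24 at day 6 (difference 0.76, SE 0.14, limma adjusted p = 0.0001). At 13346661 the day 6 difference of 0.60 (limma adjusted p = 0.016) did not pass without pif5 day 6 replicate 1 (limma adjusted p = 0.13) or without Col-0 day 6 replicate 2 (limma adjusted p = 0.076). The day 3 differences passed less clearly, with limma adjusted p of 0.043 at 13410517, 0.016 at 13416171 and 0.034 at 13346661. Day 3 calls of single probe sets were not recomputed under the alternatives.

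Of the 9 probe sets that differed in light, 6 also passed at day 6, 2 higher and 4 lower in pif5, where 13.8% and 17.8% of the table passed in those directions. At 13351718 the difference was 1.28 in light, 1.49 at day 1 and 0.98 at day 3. At day 6 pif5 leaves had 5.77, 5.85 and 6.03 there, against 3.65, 3.34 and 4.05 in Col-0 leaves (SE of the difference 0.19, limma adjusted p = 4.7e-10). At 13353454 it was 0.61, 0.80, 1.03 and 1.05 in light and at days 1, 3 and 6, with 7.97 ± 0.16 in pif5 and 6.92 ± 0.06 in Col-0 at day 6 (SD, n = 3 each). At 13513375 it was -0.63, -0.58, -0.97 and -1.05, with 7.71 ± 0.09 in pif5 and 8.76 ± 0.05 in Col-0 at day 6 (SD, n = 3 each). These 3 passed at every shared day in the same direction, unlike the large differences described above, most of which were seen only in darkened leaves.

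Probe sets next to the 2-fold line were taken from those whose arrays did not overlap, as 928 of the 930 higher and all 1274 lower ones did not. Just inside the line, 13463251 had means of 5.22 ± 0.03 in pif5 and 4.22 ± 0.09 in Col-0, and 13388984 had 5.53 ± 0.29 in pif5 and 6.53 ± 0.23 in Col-0 (SD, n = 3 each). Just outside it, 13359181 had 5.32 ± 0.27 in pif5 and 4.32 ± 0.13 in Col-0, and 13394562 had 6.28 ± 0.12 in pif5 and 7.28 ± 0.11 in Col-0 (SD, n = 3 each). Probe sets on either side of the line thus had nearly the same size.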

How the data were processed

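Biotin-labelled total RNA from leaf blades was measured on single-colour arrays. The authors deposited log2 signals for 26676 probe sets, with oligo named in the submitters' processing notes. The sources used here give neither its version nor the background and normalization steps. The values were used as deposited.

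Groups came from the labels. All 26 arrays in 9 groups entered 1 limma fit (R 4.3.3, limma 3.58.1, lmFit and eBayes, 17 residual degrees of freedom). Contrasts were pif5 minus Col-0 at each shared day, and the day 6 difference minus that at day 3 or in light. Benjamini-Hochberg adjustment ran over the whole table, and 0.05 was the threshold. The number of arrays limits the precision, and signal over background was not given.

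Named probe sets are, among those that passed at day 6 without overlap of the arrays, the 8 largest differences in each direction, the 3 largest with a mean of at least 10, the 2 largest that passed with the opposite sign at day 3, the 2 largest that passed in light, and those next to the 2-fold line. Comparisons, lists and rules were chosen with earlier results of these data known. The fit was also run on simulated data in which 200 of 26676 probe sets were changed. The day 6 test recovered 44%, 98% and 100% of changes of 0.5, 1 and 2 on the log2 scale, with 3 false calls. Far more probe sets passed in the real data, so these figures do not give the error rate of the reported calls. Alternatives were quantile normalization, median centring, leaving out dim probe sets, a fit over the compared groups alone, the replicate number as a block, an intensity trend, a test against a 1.5-fold difference, and leaving out each array.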

Additional observations from a re-analysis of the deposited data

Results flagged for a closer look

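The genotype difference changed with time by a limma test of the change itself. Between light and day 6 it changed at 5923 probe sets (22.2% of the table), and between day 3 and day 6 at 1282. Of the 16 probe sets with the largest differences at day 6, 12 had a difference at day 6 that was itself different from that at day 3.

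Among those higher in pif5, the day 6 difference minus the day 3 difference was 2.52 at 13361474, 2.70 at 13346788, 1.71 at 13419284 and 1.84 at 13407972. It was 1.96 at 13495603, where the pif5 arrays at day 3 had an SD of 1.31, 1.92 at 13499630 and 1.52 at 13363042. Among those lower in pif5 it was -4.31 at 13454993, -2.67 at 13438768, -2.50 at 13506941, -1.89 at 13388797 and -1.48 at 13347171. The probe sets were chosen for their day 6 values, which favours a positive change in the first group and a negative one in the second.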

How the results depend on the processing

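Of 160 counts recomputed under alternatives, 153 stayed within 1.5 times the reported one. Against a minimum of 1.5-fold, 2076 probe sets passed at day 6, 849 higher and 1227 lower in pif5. With 1 array left out in turn, between 7354 and 7790 probe sets passed at day 6, between 555 and 847 at day 1 and between 7 and 30 in light, and fits over the compared groups alone gave 576 at day 1 and 2 in light. In these fits fewer arrays entered. With quantile normalization 50.3% of the calls at day 6 were higher in pif5, against 43.7% as deposited. With the replicate number as a block 8600 passed at day 6, against 8419 without it. The block changed the call of no named probe set. At day 6 the deviations of arrays with the same number correlated at 0.04, -0.01 and 0.06, and those with different numbers at -0.07 to 0.04. The labels do not say what the number marks, and the numbers were not taken to pair the arrays. Of 428 recomputed values of 33 named probe sets, 421 kept direction and call, 7 at 5 probe sets (13346661, 13416171, 13463251, 13359181 and 13388984) no longer passed, and 0 reversed. The deposited processing is not known in full, no batch was given, and pif5 replicate 2 lay nearest to Col-0, for which the cause was not tested.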
